A study of Bos taurus with 8 samples.

Results

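The immediate early genes of the FOS, JUN and EGR families, together with *Atf3*, were followed in bovine articular chondrocytes of the superficial zone (SZCs) and of the deep zone (DZCs). The genes were chosen by name, as 10 symbols looked up in the table of RNA-Seq counts, and 9 of them were among its 24596 genes. *Jund* was not matched to a row by name and was not analysed here. Chondrocytes of both zones came from knee joints of wild-type calves aged 1 to 2 weeks, were released from slices of cartilage with pronase and collagenase, and were grown for 3 days in medium with 10% fetal bovine serum before RNA was taken. Superficial and deep slices came from the same cores of cartilage, the middle zone was discarded, and the deep slices alone were chopped before digestion. Each zone had 2 RNA-Seq libraries, described in the study's methods as biological duplicates, and neither zone received an added growth factor or any genetic change. The culture with serum was shared by every library, so no library shows these genes in intact cartilage or without serum.

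Immediate early genes are transcribed within minutes of a stimulus such as serum, a growth factor, mechanical load or tissue injury, and need no new protein synthesis for it. Growth factor signals pass through the ERK, JNK and p38 kinases to factors already bound at these genes, among them serum response factor, and their mRNAs then decay quickly. FOS proteins bind DNA as dimers with JUN proteins (the AP-1 complex), EGR proteins are zinc finger factors, and ATF3 can pair with JUN proteins. In this study AP-1 matters because AP-1 and cAMP response elements are bound by Creb5, the superficial zone regulator it examined, which can also pair with Jun.

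Library totals lay between 19918970 and 21890549 counts. Levels are given as CPM, a gene's counts relative to the library total, after scaling by the trimmed mean of *M* values (TMM), whose factors were 1.11 and 1.14 for SZC replicates 1 and 2 and 0.735 and 1.08 for DZC replicates 1 and 2. The floor of detection was set at 3 counts in a library, which equalled 0.129 to 0.187 CPM. Of 12857 genes tested with the exact test of edgeR, 377 (2.93%) passed a false discovery rate (FDR) of 0.05, and 76.1% of these were higher in SZCs (86.7% under scaling by library totals alone). All 6 superficial zone markers on a fixed list were among them, *Prg4* with a log2 fold change of 6.08 and *Creb5* with one of 4.61. The study had named these 6 as higher in SZCs from the same samples, so their calls are no independent check. The cartilage collagen *Col2a1* took 6.31% to 7.18% of counts in SZCs and 12.9% to 24.5% in DZCs, so both zones carried the main chondrocyte marker. Markers of immune cells summed to 17.8 to 29.4 CPM over 8 genes in SZCs and to 7.15 to 13.7 CPM in DZCs, with *Cd3e* and *Cd79a* at or under 3 counts in every library. Blood and muscle markers summed to at most 0.746 CPM over 6 genes, with *Hbb* and *Myh1* at 0 counts. Fewer cells of a type and less RNA per cell cannot be told apart in such bulk libraries.

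All 9 genes passed the filter on low counts. *Egr2* and *Egr3* did so through the SZC libraries alone, as each DZC library held 3 or 4 of their counts. Of the 9, 1 gene, *Egr3*, passed the FDR threshold, against 2.93% of all tested genes. *Egr3* was higher in SZCs, as were 2.23% of all tested genes, and 0 of the 9 were called higher in DZCs, against 0.700%. At an unadjusted p-value below 0.05 there were 4, *Egr3*, *Egr2*, *Jun* and *Atf3*, against 9.09% of all genes. SZC and DZC libraries did not overlap for those 4. *Egr2* and *Egr3* were higher in both SZC libraries, a pattern shared by 21.0% of all tested genes, and *Jun* and *Atf3* were higher in both DZC libraries, as were 20.4%. For *Fos*, *Fosb*, *Fosl2*, *Junb* and *Egr1* the zones overlapped. The median log2 fold change of the 9 genes was 0.58, against -0.04 for all genes tested. It was -0.215 without SZC replicate 1 and 1.27 without SZC replicate 2.

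**Figure D1:**
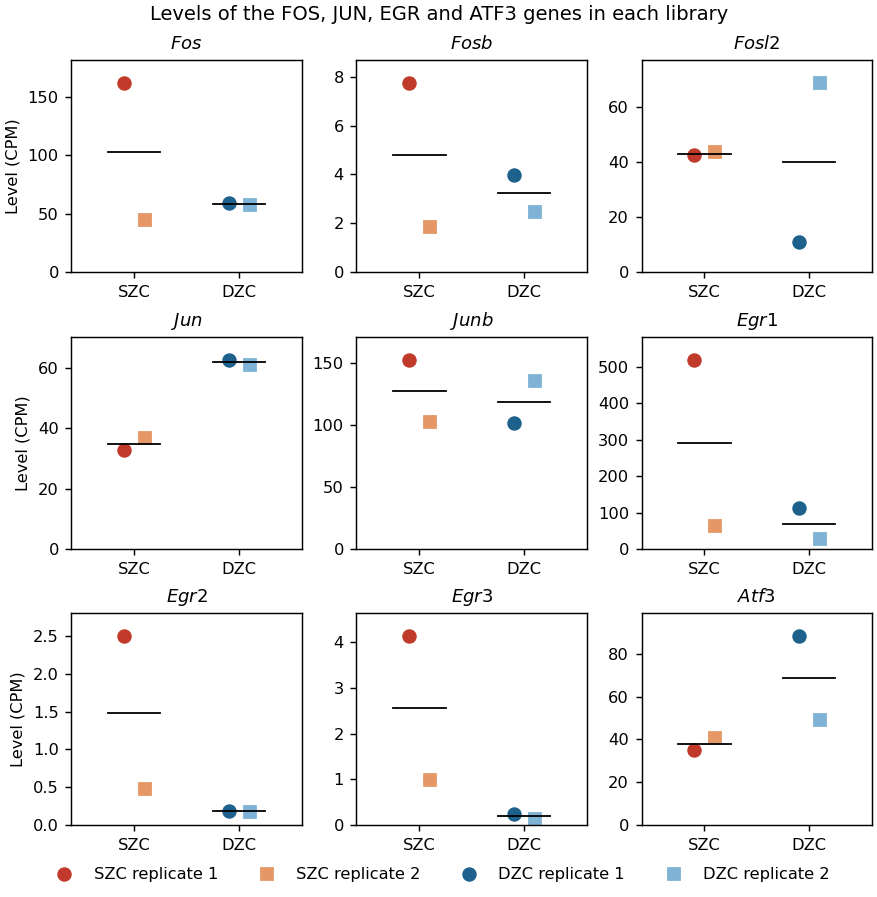
Level of each gene in CPM after TMM scaling (linear axis from 0) in the 4 libraries, with SZCs in red and orange, DZCs in dark and light blue, and a bar at the mean of each zone. SZC replicate 1 was the highest of the 4 libraries for *Fos*, *Fosb*, *Junb*, *Egr1*, *Egr2* and *Egr3*, while *Jun* and *Atf3* were higher in both DZC libraries.

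*Egr3* encodes a zinc finger factor of the EGR family that is induced by growth factors, and it was close to the detection limit in DZCs. SZC replicates 1 and 2 held 91 and 23 of its counts, and DZC replicates 1 and 2 held 4 and 3. In CPM these are 4.13 and 0.990 in SZCs and 0.249 and 0.134 in DZCs. The lower SZC library was thus 3.98-fold above the higher DZC library, while the SZC libraries themselves lay 4.17-fold apart. This gave a log2 fold change of 3.73 with a standard error of 1.04 (FDR 0.0324 by the exact test, n = 2 per zone), a 13.2-fold difference with a 95% interval of 3.21-fold to 54.7-fold. Counting error alone, from 114 counts in SZCs and 7 in DZCs, gave a ratio of 13.8 with a narrower interval of 6.50 to 35.2. Its FDR placed it at rank 344 of the 377 genes called. The call was lost without SZC replicate 1, where the log2 fold change was 2.36 and the FDR 1, and in edgeR's quasi-likelihood test, where the FDR was 0.333.

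*Egr2*, a family member known for its role in myelinating cells and in the hindbrain, had the same order of libraries. Its counts were 55 and 11 in SZC replicates 1 and 2 and 3 and 4 in DZC replicates 1 and 2, or 2.5, 0.474, 0.187 and 0.179 CPM. The DZC values were at or just above the floor of 3 counts. Its log2 fold change was 2.98 with a standard error of 1.10, but its FDR by exact test was 0.212, so *Egr2* did not pass. The ratio of summed counts was 8.0, with a counting interval of 3.67 to 20.7. Without SZC replicate 1 the log2 fold change was 1.35.

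*Egr1*, the most studied member of the family and a target of serum response factor, showed the largest gap between the SZC libraries among the 9 genes. SZC replicates 1 and 2 held 11430 and 1454 counts of it, and DZC replicates 1 and 2 held 1812 and 593. The corresponding levels were 519, 62.6, 113 and 26.6 CPM. SZC replicate 1 stood 8.29-fold above SZC replicate 2, and SZC replicate 2 lay between the DZC libraries, which themselves differed 4.24-fold. The mean was 291 ± 323 CPM in SZCs and 69.6 ± 60.9 CPM in DZCs (SD, n = 2 each), so each SD was about as large as its mean. Its log2 fold change of 2.06 (SE 1.03; FDR 0.614, exact test) rested on SZC replicate 1, and without that library it was -0.15. *Egr4*, the remaining gene of the family, had 1 count in SZC replicate 1 and 0 in the other libraries.

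*Fos* encodes the prototype partner of JUN proteins in AP-1. Its levels were 162 and 44.2 CPM in SZC replicates 1 and 2 and 58.8 and 57.2 CPM in DZC replicates 1 and 2. SZC replicate 2 was the lowest of the 4 and SZC replicate 1 the highest, with the DZC libraries between them. *Fos* had a log2 fold change of 0.83 (95% interval -0.39 to 2.05, FDR 0.867, exact test), and without SZC replicate 1 it turned to -0.39. *Fosb*, the closest relative of *Fos*, followed the same order at 7.77 and 1.85 CPM in SZCs and 3.98 and 2.46 CPM in DZCs. Its log2 fold change was 0.58 (95% interval -1.03 to 2.19, FDR 0.998, exact test), and it was -0.79 without SZC replicate 1.

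*Fosl2*, which encodes the FOS family protein Fra-2 and is known to act in cartilage and bone, did not share this order. The SZC libraries stood close together at 42.4 and 43.7 CPM, with an SD of 0.917 CPM. The DZC libraries lay on either side of the SZC level, with replicate 1 at 11.1 CPM and replicate 2 at 68.9 CPM. This spread within DZCs left a log2 fold change of 0.11 (95% interval -1.43 to 1.65, FDR 1, exact test). The sign of the difference depended on which DZC library was used, with a log2 fold change of 1.98 (FDR 7.92e-08, exact test) without DZC replicate 2 and of -0.68 (FDR 0.143) without DZC replicate 1. *Fosl1*, the gene of the other Fra protein and a relative outside the group of 10, was also highest in DZC replicate 2, at 29.7 CPM against 4.40 to 5.17 CPM in the other libraries. In all tested genes, 17.4% were at least 2-fold higher in DZC replicate 2 than in DZC replicate 1, and 7.79% were at least 2-fold higher in the opposite direction. Chondrocyte markers summed to 559000 CPM in DZC replicate 1 and 215000 CPM in DZC replicate 2, and fibroblast and synovial markers to 4530 and 14300 CPM. Markers of hypertrophic chondrocytes and bone cells summed to 35.2 CPM in DZC replicate 1 and 274 CPM in DZC replicate 2, of which the bone matrix gene *Spp1*, also on the list of AP-1 and EGR targets, gave 18.9 and 201 CPM. Of the 9 genes of that list above 3 counts in some library, 6 were higher in DZC replicate 2, among them the hypertrophic collagen gene *Col10a1* (0 and 9.90 CPM). The other 3 were higher in DZC replicate 1, among them the signalling gene *Ihh* (12.1 and 2.15 CPM), the single called gene of the list. The part of these in the *Fosl2* and *Fosl1* values was not tested.

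*Jun* encodes the central AP-1 subunit, which also binds Creb5 and Atf3. The SZC libraries held 723 and 856 counts of it (32.8 and 36.9 CPM), and the DZC libraries 1009 and 1363 (62.7 and 61.1 CPM). Both DZC libraries were above both SZC libraries, and the lower DZC library exceeded the higher SZC library 1.66-fold. Zone levels differed by a log2 fold change of -0.83 (standard error 0.33, 95% interval -1.48 to -0.18), equal to a 1.78-fold higher level in DZCs. Its unadjusted p-value was 0.0132 and its FDR by exact test 0.235, so it did not pass over all genes. Without each library in turn the log2 fold change lay between -0.91 and -0.75. The FDR then fell to 0.0483 without DZC replicate 1 and to 0.0194 without DZC replicate 2, and was 1 without either SZC library. Scaling by library totals gave a log2 fold change of -0.52, where the median of all genes shifted by 0.30.

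*Atf3*, a stress-induced factor of the ATF family, also had both DZC libraries above both SZC libraries, with 35.2 and 40.9 CPM in SZCs and 88.2 and 48.9 CPM in DZCs. The gap between the zones was 1.20-fold, smaller than the 1.80-fold difference between the DZC libraries. *Atf3* had a log2 fold change of -0.85 (95% interval -1.67 to -0.03, FDR 0.51, exact test), which ranged from -1.19 to -0.36 when single libraries were dropped. *Atf3* passed the threshold in 1 of those, without DZC replicate 2 (FDR 0.000349, exact test). *Junb*, a JUN family gene, was at 152 and 102 CPM in SZCs and 102 and 136 CPM in DZCs, so the zones overlapped. Its log2 fold change was 0.10, with a 95% interval from -0.68 to 0.88. This leaves room for SZC levels from 0.626 to 1.84 times those of DZCs.

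**Figure D2:**
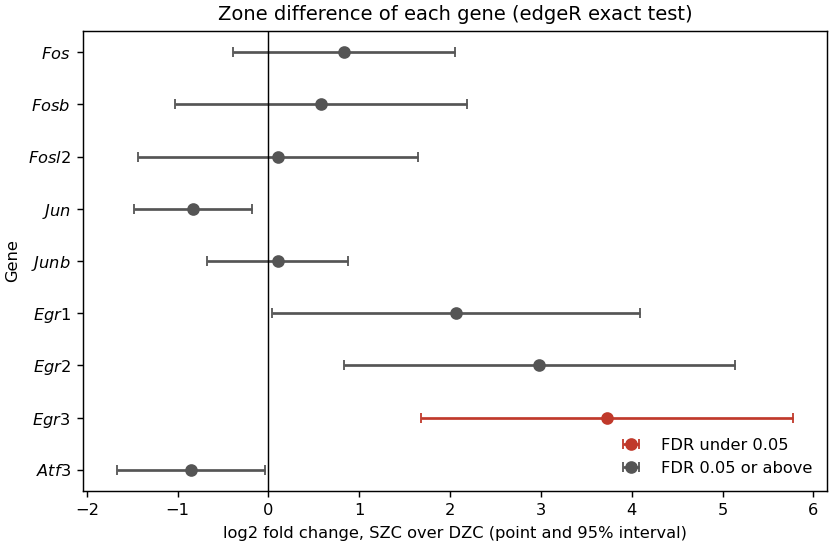
Log2 fold change of SZCs over DZCs for each gene with its 95% interval, which is not adjusted for the number of genes; red marks the gene with an FDR under 0.05. *Egr3* lies at 3.73, *Egr2* at 2.98 and *Egr1* at 2.06, all with standard errors over 1, while *Jun* and *Atf3* lie at -0.83 and -0.85 with standard errors of 0.33 and 0.42.

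The genes thus fell into different patterns across libraries. *Fos*, *Fosb*, *Egr1*, *Egr2* and *Egr3* were 3.67-fold to 8.29-fold higher in SZC replicate 1 than in SZC replicate 2. SZC replicate 1 was the highest of the 4 libraries for 6 of the 9 genes, against 21.7% of all tested genes, and the SZC libraries differed at least 2-fold in either direction for 5 of the 9, against 7.59%. SZC replicate 1 was at least 3-fold above SZC replicate 2 in 5 of the 9 genes and in 0.692% of all tested genes, and for 4 of the 9 SZC replicate 1 was at least 2-fold above every other library, against 0.988% of all genes. *Fosl2*, *Jun* and *Atf3* stood at 0.970, 0.891 and 0.860 times the level of SZC replicate 2, and *Junb* at 1.49 times. The pattern was noticed in these values and has no test. No label separates the SZC libraries other than their replicate number. In SZC replicates 1 and 2 the superficial zone markers summed to 4800 and 3620 CPM, the chondrocyte markers to 142000 and 145000 CPM, and 13 mitochondrial genes took 2.71% and 2.32% of counts. Fibroblast and synovial markers summed to 18000 and 25800 CPM, immune markers to 17.8 and 29.4 CPM, and endothelial and mural markers to 11.1 and 17.4 CPM. SZC replicate 2 was the higher for 4 of 7 fibroblast and synovial markers, with a median log2 ratio of -0.03 over that list, for 6 of 6 immune markers above 3 counts in some library, and for 7 of 7 endothelial and mural markers. Of 41 tested markers over all lists, 2 differed at least 3-fold between the SZC libraries, both higher in SZC replicate 2. They were *Thy1*, a fibroblast surface marker (48.9 and 162 CPM), and *Pecam1*, an endothelial adhesion gene (0.363 and 1.94 CPM). The heat shock and dissociation list summed to 4540 and 5820 CPM, and to 2920 and 2720 CPM without *Hspa5*, an endoplasmic reticulum chaperone gene. Of its 14 tested rows 7 were higher in SZC replicate 1, among them *Hspa1a* (175 and 120 CPM), and 0 of them at least 2-fold. The part of any of these in the difference between the SZC libraries was not tested.

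The spread between replicates entered the tests through the gene-wise dispersion, given here as the biological coefficient of variation. Its median was 0.543 over the 9 genes and 0.312 over all genes, and it was at least 0.5 in 5 of the 9 and in 11.9% of all genes tested. *Egr1* had the highest value of the group, 0.715, and *Jun* the lowest, 0.227. The standard error of the log2 fold change was 0.33 for *Jun* and 1.03 for *Egr1*.

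**Figure D3:**
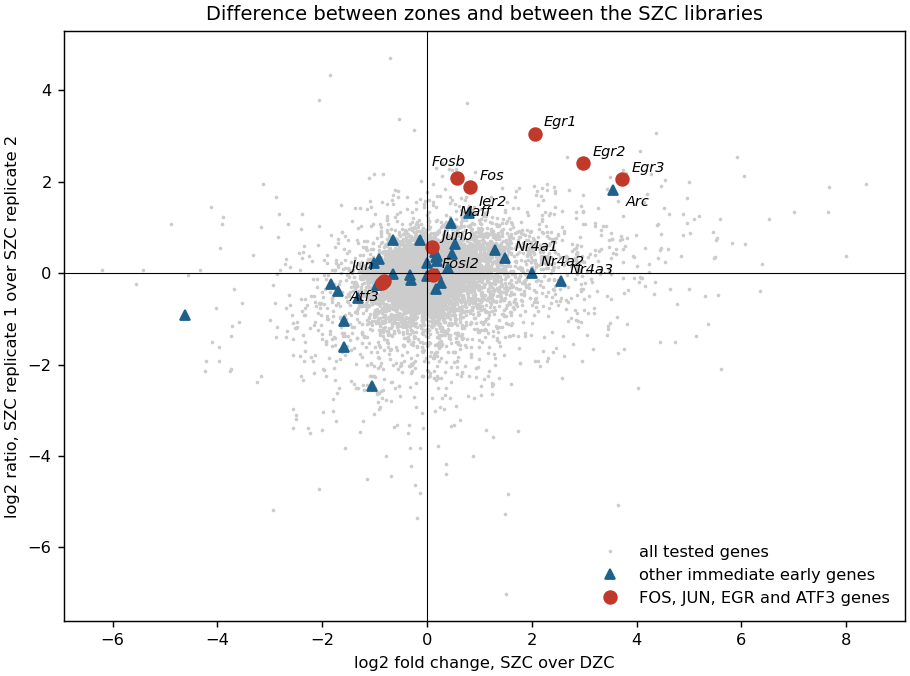
Log2 fold change between the zones (horizontal) against the log2 ratio of SZC replicate 1 to SZC replicate 2 (vertical) for tested genes with counts in both SZC libraries (grey), other immediate early genes (blue triangles) and the FOS, JUN, EGR and ATF3 genes (red). *Fos*, *Fosb*, *Egr1*, *Egr2* and *Egr3* lie at vertical values of 1.87 to 3.05, while the Nr4a genes lie to the right with vertical values near 0.

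Other immediate early genes were read from a list of 38 symbols, of which 35 were found and 34 were tested. By the exact test 4 were higher in SZCs and 2 higher in DZCs, against 2.23% and 0.700% of all tested genes, and the list's median log2 fold change was 0.08. Those higher in SZCs were the orphan nuclear receptors *Nr4a1*, *Nr4a2* and *Nr4a3* and the RNA-binding protein gene *Zfp36l1*. *Nr4a1* was at 75.2 and 60.0 CPM in SZCs and at 25.7 and 22.2 CPM in DZCs, with a log2 fold change of 1.5 and FDR 0.00218 (exact test). *Nr4a2* was at 60.4 CPM in both SZC libraries and at 9.14 and 21.0 CPM in DZCs (log2 fold change 2.00, FDR 0.0041, exact test). *Nr4a3* was at 8.58 and 9.69 CPM in SZCs and 1.43 and 1.66 CPM in DZCs (log2 fold change 2.56, FDR 0.000475, exact test). These receptors are induced by many of the same signals as *Fos* and *Egr1*, yet their SZC libraries differed at most 1.25-fold. *Nr4a3* had log2 fold changes between 2.46 and 2.85 under all 11 alternatives tried, whereas that of *Egr1* ranged from -0.15 to 3.45. For *Zfp36l1* the zones differed by 1.30 on the log2 scale (FDR 0.0215, exact test). These 4 genes also stand in a list of regulators that the study drew from these samples, so they are no independent evidence of a direction. The calls of all 4 were lost without SZC replicate 1 and without SZC replicate 2, settings under which 68 and 162 genes were called in all.

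The immediate early genes higher in DZCs were *Gadd45a*, a gene of the growth arrest and DNA damage response, and the kinase gene *Plk2*. *Gadd45a* was at 21.2 and 43.7 CPM in SZCs and 94.9 and 99.2 CPM in DZCs (log2 fold change -1.58, FDR 0.0239, exact test). *Plk2* reached 86.3 CPM in DZC replicate 2 but 4.29 CPM in DZC replicate 1, against 1.27 and 2.41 CPM in SZCs. Its log2 fold change was -4.62 (FDR 0.0288, exact test) and -1.19 without DZC replicate 2 (FDR 0.171), and the call was also lost without SZC replicate 1 (FDR 0.183) and, with all libraries, in DESeq2 (-4.62, FDR 0.125). That of *Gadd45a* was lost without SZC replicate 1 (-1.15, FDR 1) and without SZC replicate 2 (-2.20, FDR 0.106). Under scaling by library totals, 4 of the 6 were called, the SZC genes, and 0 of the 2 DZC genes. A further 3 genes of the list were at least 2-fold higher in SZC replicate 1 than in SZC replicate 2. They were *Ier2* (60.4 and 24.3 CPM), *Maff* (46.2 and 21.8 CPM) and *Arc* (7.86 and 2.24 CPM), and none of them passed the zone test, with FDR values by exact test from 0.396 to 0.973. Another 3, *Gadd45a*, *Gadd45g* (9.76 and 30.1 CPM) and *Hes1* (11 and 64 counts), were at least 2-fold higher in SZC replicate 2. Among all tested genes 2.18% showed such an excess in SZC replicate 1 and 5.41% in SZC replicate 2, which for the 9 genes was seen in 0.

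**Figure D4:**
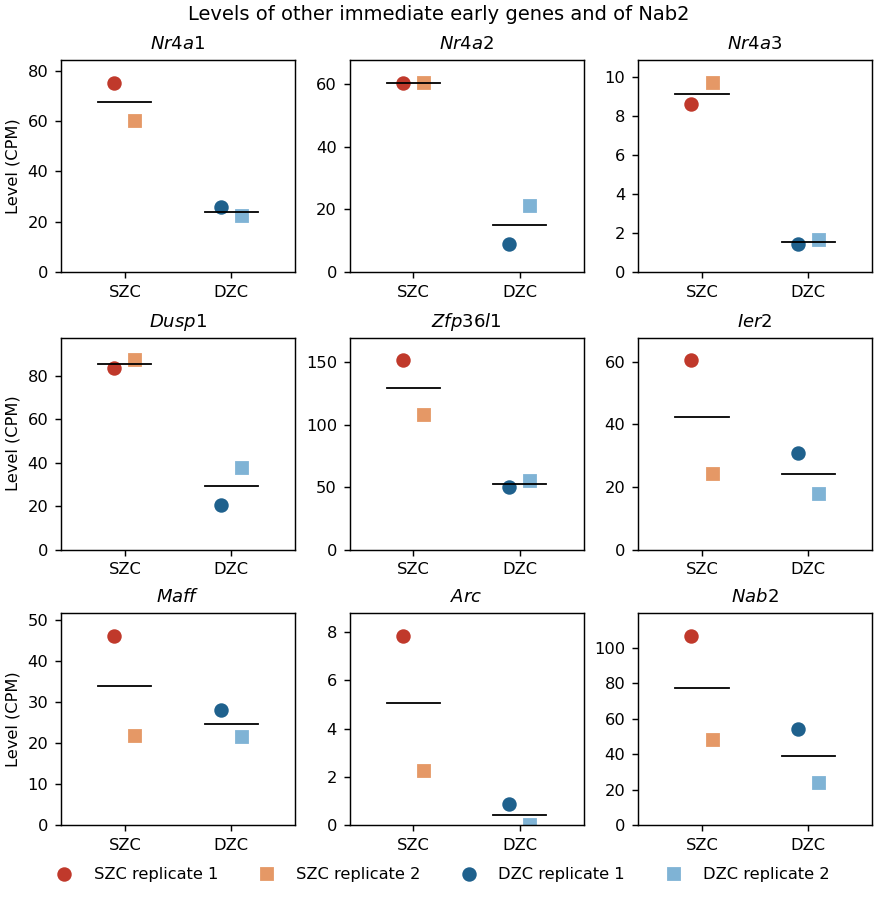
Level in CPM after TMM scaling (linear axis from 0) of 9 related genes in the 4 libraries, with a bar at the mean of each zone. *Nr4a1*, *Nr4a2*, *Nr4a3*, *Dusp1* and *Zfp36l1* have both SZC libraries above both DZC libraries, whereas *Ier2*, *Maff* and *Nab2* are highest in SZC replicate 1 with the other libraries overlapping.

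Of the genes that control the activity of the group, phosphatases that switch off MAP kinases gave a single call. *Dusp1*, itself an immediate early gene, was at 83.4 and 87.1 CPM in SZCs and 20.6 and 37.6 CPM in DZCs (log2 fold change 1.55, FDR 0.0133, exact test). Its FDR was 0.0785 under scaling by library totals, 0.542 without SZC replicate 1 and 0.450 without SZC replicate 2, with log2 fold changes of 1.78, 1.58 and 1.52. The other 6 tested phosphatases did not pass. Among 23 tested genes for ERK, JNK and p38 kinases and the kinases around them, 0 passed the exact test of edgeR. In that test 0 had an unadjusted p-value below 0.05 (DESeq2 called 0 and had 2 there), and their median log2 fold change was -0.01. These values are of mRNA, and kinase activity was not measured in these libraries. By Western blot the study found more of the active, phosphorylated p38 in SZCs than in DZCs. Serum response factor and its partners, with the EGR corepressors *Nab1* and *Nab2*, gave 0 calls among 9 tested genes, with 0 at an unadjusted p-value below 0.05 (DESeq2 called 0 and had 1 there). *Srf* itself was at 29.0 and 25.9 CPM in SZCs and 22.2 and 21.6 CPM in DZCs, a log2 fold change of 0.32. *Nab2*, a repressor of EGR proteins that is induced by them, was at 107 and 47.8 CPM in SZCs and 54.3 and 23.6 CPM in DZCs. Its replicate 1 was the higher library in both zones, and its log2 fold change was 0.99 (FDR 0.721, exact test). In CPM the same held for *Fos*, *Fosb*, *Egr1*, *Egr2* and *Egr3*, though *Egr2* and *Egr3* had 3 or 4 counts per DZC library.

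Proteins that can dimerize with FOS and JUN were covered by 19 tested genes. *Creb5* was the sole call among them, and *Atf2* and *Atf7*, its closest relatives, had log2 fold changes of 0.07 and 0.61 (FDR 1 and 0.655, exact test). Of 23 tested genes known as targets of AP-1 or EGR proteins, 0 passed the exact test, with 6 at an unadjusted p-value below 0.05 (9.09% of all tested genes were), and DESeq2 called 1. That gene, *Mmp13*, had 468 counts in DZC replicate 2 and 0 in every other library, is also on the list of hypertrophic and bone cell markers, and had not passed the filter for the exact test. The matrix metalloproteinase gene *Mmp3* was at 35.0 and 31.4 CPM in SZCs and 5.22 and 16.8 CPM in DZCs (log2 fold change 1.59, FDR 0.186 in the same test). The median of the absolute log2 fold changes in the list of targets was 0.989, against 0.331 for all genes, and the median of the signed values was 0.02. The DZC libraries also lay apart in this list, with a median log2 ratio of replicate 1 to replicate 2 of -1.23, against -0.01 for all genes. The part of this in the absolute values was not tested. In the heat shock and dissociation list, *Hspa5* was the only call among 14 tested rows. *Hspa5* was higher in DZCs, at -1.79 on the log2 scale (FDR 0.0183, exact test), and lost its call under scaling by totals (FDR 0.119), without SZC replicate 1 (FDR 1) and without SZC replicate 2 (FDR 0.264).

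**Figure D5:**
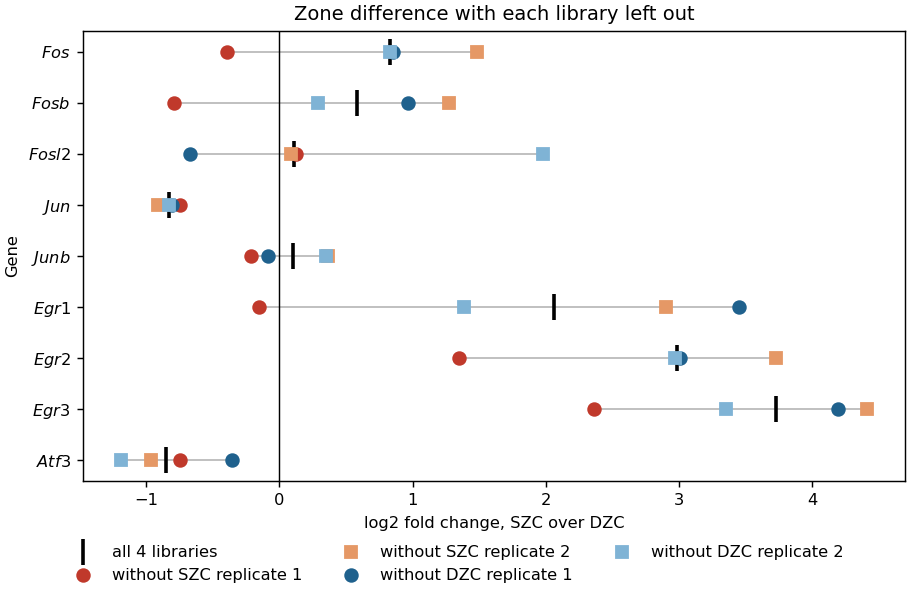
Log2 fold change of SZCs over DZCs for each gene with all 4 libraries (black bar) and after each library was removed (symbols). Leaving out SZC replicate 1 moves *Egr1* from 2.06 to -0.15 and *Fos* from 0.83 to -0.39, while *Jun* stays between -0.91 and -0.75.

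Leaving out libraries showed which ones each value rested on. With a single library left in a zone, that library was assumed to vary like those of the other zone. Without SZC replicate 1, 0 of the 9 genes were called and 0 had an unadjusted p-value below 0.05, in a fit that called 68 of all genes and had 482 below that p-value. Without SZC replicate 2, *Egr1* and *Egr3* were among 162 genes called, and without DZC replicate 1, *Egr1*, *Egr3* and *Jun* were among 859. Without DZC replicate 2, *Egr3*, *Fosl2*, *Jun* and *Atf3* were called, in a fit that called 2768 genes in all. *Egr3* had log2 fold changes between 2.36 and 4.41 and *Egr2* between 1.35 and 3.73, so both kept their direction in every fit. *Fos*, *Fosb* and *Egr1* changed direction without SZC replicate 1, *Fosl2* without DZC replicate 1, and *Junb* without either of those libraries.

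The genes most like *Egr3* in their pattern were found by the distance between log2 levels, each centred on its own mean over the 4 libraries. The nearest was an unnamed gene, ENSBTAG00000031538, at a distance of 0.33, followed by the ligand gene *Wnt11* (0.404), the receptor gene *Gfra2* (0.473), the potassium channel gene *Kcnh1* (0.577) and the complement gene *C3* (0.603). *Wnt11* was at 57.3 and 20.8 CPM in SZCs and 6.47 and 3.67 CPM in DZCs, and *Gfra2* at 33.0 and 9.17 CPM in SZCs and 1.93 and 1.97 CPM in DZCs. For the mean pattern of *Fos*, *Fosb* and *Egr1* the nearest gene outside the group was *Ier2* at a distance of 0.725. It was followed by *Optc*, *C15H11orf42*, *Gpt* and *Upk3b* at 0.737 to 0.747, distances too similar to rank these genes. With 4 libraries, such likeness describes these samples and many genes can share it.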

How the data were processed

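RNA was sequenced by the authors from SZCs and DZCs (2 libraries each) with SMART-Seq v4 as 75-base single-end reads, aligned with STAR 2.5.2b to Ensembl build UMD 3.1 version 88 and counted as unstranded. The authors deposited counts per gene without normalization. They also deposited log2 fold changes and adjusted p-values of their own comparison, which were not used; that table filled 8 of 6119 blank gene names. ATAC-Seq was not analysed here.

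The tests followed the study's design and used edgeR 4.0.16 (R 4.3.3): TMM scaling and the exact test, with FDR over all tested genes and a threshold of 0.05. The filter and dispersion estimator, not given in the sources used here, were edgeR defaults. Standard errors follow from the gene-wise dispersion, and 95% intervals are 1.96 standard errors. Counting intervals (exact, from summed counts) cover counting error only. Replicates differed beyond sampling noise (chi-square per degree of freedom 61.9 and 303), and p-values measure the spread between these libraries.

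Members and lists were chosen with earlier results of these data known. Named were the members, list genes that were called, at most 4 others per list with the largest change or a direct role, and the 5 genes nearest in pattern (log2 of CPM + 0.1); *Fosl1*, *Egr4*, *Ier2*, *Maff*, *Arc*, *Mmp13*, *Thy1*, *Pecam1*, *Col10a1*, *Spp1*, *Hspa1a*, *Gadd45g* and *Hes1* were named after their values were seen. In RefSeq annotation of ARS-UCD2.0, 0 genes overlapped the 9 members; overlaps on the authors' build were not checked. Scripts were tested on simulated data. Alternatives were the quasi-likelihood test, DESeq2 1.42.0, 2 other filters, 2 other scalings, a replicate block and leaving out each library. Promoter and protein sequences were not used here.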

Additional observations from a re-analysis of the deposited data

How the results depend on the processing

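Against 377 genes called in all and 1 among the 9 immediate early genes, the quasi-likelihood test of edgeR called 0 and 0, with 1126 and 3 at an unadjusted p-value below 0.05, while DESeq2 called 402 and 1. The quasi-likelihood FDR of *Egr3* was 0.333 at a log2 fold change of 3.73, and over all 11 alternatives *Egr3* was called in 9, with FDR values from 0.0231 to 1. Leaving out each library gave 68 to 2768 genes in all and 0 to 4 of the 9. Reversed log2 fold changes were -0.39 for *Fos*, -0.79 for *Fosb*, -0.21 for *Junb* and -0.15 for *Egr1* without SZC replicate 1, and -0.68 for *Fosl2* and -0.09 for *Junb* without DZC replicate 1. The leave-one-out range was -0.39 to 1.48 for *Fos*, -0.79 to 1.27 for *Fosb*, -0.68 to 1.98 for *Fosl2*, -0.21 to 0.36 for *Junb* and -0.15 to 3.45 for *Egr1*. Each of these fits also had fewer libraries, and the cause of the changes was not tested. Other filters and scalings left the direction of every member and the single call in place, except that *Egr2* was removed by the filter above 1 CPM in 2 libraries. Scaling by totals ended the calls of *Dusp1*, *Gadd45a*, *Plk2* and *Hspa5* and shifted the median log2 fold change by 0.30.

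Libraries of the zones share replicate numbers, but nothing given ties same-numbered libraries to a joint, and their deviations from zone means had a correlation of 0.42 across genes. Adding the replicate block to the quasi-likelihood fit gave 347 calls, 277 of them among the 377, and 2 of the 9, *Egr1* (log2 fold change 1.72, FDR 0.0418 by edgeR) and *Egr3* (3.50, FDR 0.0418). In this fit *Zfp36l1* (1.28, FDR 0.0673) and *Hspa5* (-1.85, FDR 0.282) were not called, while *Nr4a1*, *Nr4a2* and *Nr4a3* were. The quasi-likelihood test without the block called none of these genes, with an FDR of 0.268 for *Zfp36l1* and 0.434 for *Hspa5*. A search of promoters for motifs was planned and not run. Depth limited *Egr2* and *Egr3* in DZCs, where they had 3 or 4 counts per library.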
